A study of Mus musculus with 6 samples.

Results

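Multi-exon skipping blocks are runs of at least 2 neighbouring exons that some transcripts of a gene contain and that other transcripts leave out together, by a single splice from the exon before the run to the exon after it. They were taken from catalogues of splicing events deposited for each library, as the entries of the types multi-exon skipping and approximate multi-exon skipping. Entries with the same type, gene, chromosome, strand and exon boundaries were counted as 1 block. This gave 2562 distinct blocks out of 128790 distinct events of all types, or 1.99%. Of them, 2148 had exact boundaries and 414 were of the approximate type. Single-exon skipping events, with which blocks are compared below, numbered 10933, so blocks made up 19.0% of all skipping events.

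RNA came from the nucleus accumbens (NAc), a forebrain region of the reward circuit, of C57BL/6N mice. The morphine group had been injected with the opioid morphine in conditioned place preference (CPP) training, in which an animal learns to link a drug with a place, and the saline group had been injected with saline in the same training. Each group had 3 samples from 6 mice; dose, age and sex were not given in the sources used here, nor was the assignment of mice to samples, so every p-value below measures the spread between samples. All 12 marker genes of medium spiny neurons, the main NAc cell type, were listed in every library, as were all 5 of astrocytes, of oligodendrocytes, of microglia and of ependyma, which lines the ventricles, and 4 of 4 of glutamatergic cortical neurons; of the endothelial markers, 3 of 4 were. The catalogues state only whether an event was assembled in a library, with no level and no read depth, so fewer copies of a transcript and fewer cells that make it cannot be told apart.

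Skipping of several exons at once changes a protein by more than 1 cassette at a time. The coding sequence is read in triplets: when the nucleotides left out add up to a multiple of 3, the downstream reading frame is kept and the protein loses an internal stretch, and otherwise the frame shifts and usually meets an early stop codon. Exons of a block may each be a multiple of 3, or may be out of frame singly and restore the frame together. Neurons use coordinated exon choices widely in cytoskeletal, adhesion and synaptic proteins, often with very short exons called microexons.

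The sequences below show these forms of block. They are whole coding exons from the GENCODE M21 transcripts (build GRCm38), printed 5′ to 3′ on the transcript strand, and each block lies within a coding region. The first set is the block of Mbnl1 and Mbnl2, a pair of paralogous RNA-binding regulators of splicing, with exons of 36 and 95 nt in both genes. It was listed in all 6 libraries in both, at chr3:60621423-60622240 (+) and chr14:120403336-120404732 (+). Capitals mark the bases at which the exons of the pair of genes differ: 5 in the first exon and 14 in the second.
Mbnl1 exon 1 of block: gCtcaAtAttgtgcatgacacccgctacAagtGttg
Mbnl2 exon 1 of block: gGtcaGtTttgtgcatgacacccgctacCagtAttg
Mbnl1 exon 2 of block: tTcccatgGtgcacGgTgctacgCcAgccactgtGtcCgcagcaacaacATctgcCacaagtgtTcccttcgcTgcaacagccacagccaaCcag
Mbnl2 exon 2 of block: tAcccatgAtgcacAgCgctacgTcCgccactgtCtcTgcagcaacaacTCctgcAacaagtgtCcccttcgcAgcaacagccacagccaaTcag

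The second set is the block of Tpd52 and Tpd52l2, coiled-coil proteins of the tumour protein D52 family, with exons of 27 and 42 nt. It too was listed in all 6 libraries in both genes, and capitals again mark differing bases, 10 in the first exon and 12 in the second.
Tpd52 exon 1 of block: ATTGcaAGcTTtctcacaTtcAtttag
Tpd52l2 exon 1 of block: GGCTcaTCcGCtctcacaAtcCtttag
Tpd52 exon 2 of block: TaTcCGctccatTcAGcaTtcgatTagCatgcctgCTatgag
Tpd52l2 exon 2 of block: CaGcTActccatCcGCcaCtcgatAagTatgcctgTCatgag

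Another set contrasts how exons of a frame-preserving block join the reading frame. Capitals mark bases of a codon split across an exon boundary. The 3 short exons of Dctn1 (chr6:83183936-83187784, +), the large subunit of the dynein cofactor dynactin, hold whole codons only, so that none is in capitals. The pair of exons of Nfasc (chr1:132597765-132600214, -), a cell adhesion molecule of axon initial segments and nodes, are not multiples of 3 singly, but their sum is.
Dctn1 exon 1 of block: cggggactgaagcctaagaag
Dctn1 exon 2 of block: gcaccgacagcccgaaag
Dctn1 exon 3 of block: accacaactcgacggcccaag
Nfasc exon 1 of block: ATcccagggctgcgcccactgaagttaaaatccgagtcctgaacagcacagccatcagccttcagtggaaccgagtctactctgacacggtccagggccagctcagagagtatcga
Nfasc exon 2 of block: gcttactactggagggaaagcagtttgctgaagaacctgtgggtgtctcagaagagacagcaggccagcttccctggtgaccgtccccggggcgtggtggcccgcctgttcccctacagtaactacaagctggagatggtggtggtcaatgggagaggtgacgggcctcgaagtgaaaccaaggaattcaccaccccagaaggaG

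The last set is a pair of blocks whose listing differed between the groups, described further on. The block of Lrp1b (chr2:40886641-40889344, -), a large receptor of the low-density lipoprotein receptor family, was listed in 3 morphine and 0 saline libraries. That of Adam22 (chr5:8087982-8090252, -), a catalytically inactive ADAM protein that binds the secreted synaptic protein LGI1, was listed in 0 morphine and 3 saline libraries. Capitals again mark bases of split codons.
Lrp1b exon 1 of block: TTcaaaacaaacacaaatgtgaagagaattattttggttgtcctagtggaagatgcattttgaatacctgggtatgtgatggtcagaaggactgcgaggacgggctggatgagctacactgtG
Lrp1b exon 2 of block: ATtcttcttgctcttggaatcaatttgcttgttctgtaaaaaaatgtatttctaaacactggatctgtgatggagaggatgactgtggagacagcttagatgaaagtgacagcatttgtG
Adam22 exon 1 of block: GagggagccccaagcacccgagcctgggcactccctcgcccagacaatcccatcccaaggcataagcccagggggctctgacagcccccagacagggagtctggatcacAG
Adam22 exon 2 of block: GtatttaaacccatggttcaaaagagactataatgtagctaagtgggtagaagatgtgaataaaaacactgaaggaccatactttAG

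Blocks were found in 1216 genes, or 7.63% of the 15939 genes with any listed event. A gene most often had 1 block (728 genes), while 26 genes had 10 or more. Skipping of 2 exons accounted for 1776 blocks (69.3%), of 3 exons for 455, of 4 to 5 for 229 and of 6 or more for 102. The longest run, in 9330182L06Rik, held 17 exons and was listed in saline replicate 1 alone. The nucleotides skipped had a median of 285 (quartiles 185 and 506.75). The shortest block, with 18 nt, was in Ncam1, the neural cell adhesion molecule. Every exon of the block overlapped annotated coding sequence in 1823 blocks (71.2%), and no exon did in 404. All exons had annotated boundaries in 1872 blocks (73.1%), and the skipping splice itself was annotated in 1369 (53.4%). In 78 blocks the strand was opposite to that of the gene named, and 207 blocks held an exon of at most 30 nt.

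Blocks were listed by fewer libraries than single exons. Of the blocks, 57.8% were listed in 1 library and 11.0% (283 blocks in 206 genes) in all 6, whereas of the single exons 43.2% were listed in 1 library and 20.05% in all 6. The share listed in all 6 was 11.99% for blocks of 2 exons, 9.67% for 3, 7.42% for 4 to 5 and 8.82% for 6 or more. The last share rests on 9 blocks, of which 6 were at 1 place in Ttc3. Those 6 had only 2 different exon chains, that is, runs of the same exons whatever their type and flanks. Blocks seen in every library were shorter, with a median of 217 nt against 321 nt for those seen in 1. They were also better annotated: all exons were annotated in 97.5% of the blocks in all 6 libraries and in 61.5% of those in 1, and the skipping splice in 90.1% and 40.4%. Every exon of the block was also listed as a single skipped exon in 173 of the 283 blocks (61.1%), against 32.7% of the blocks in 1 library.

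**Figure D1:**
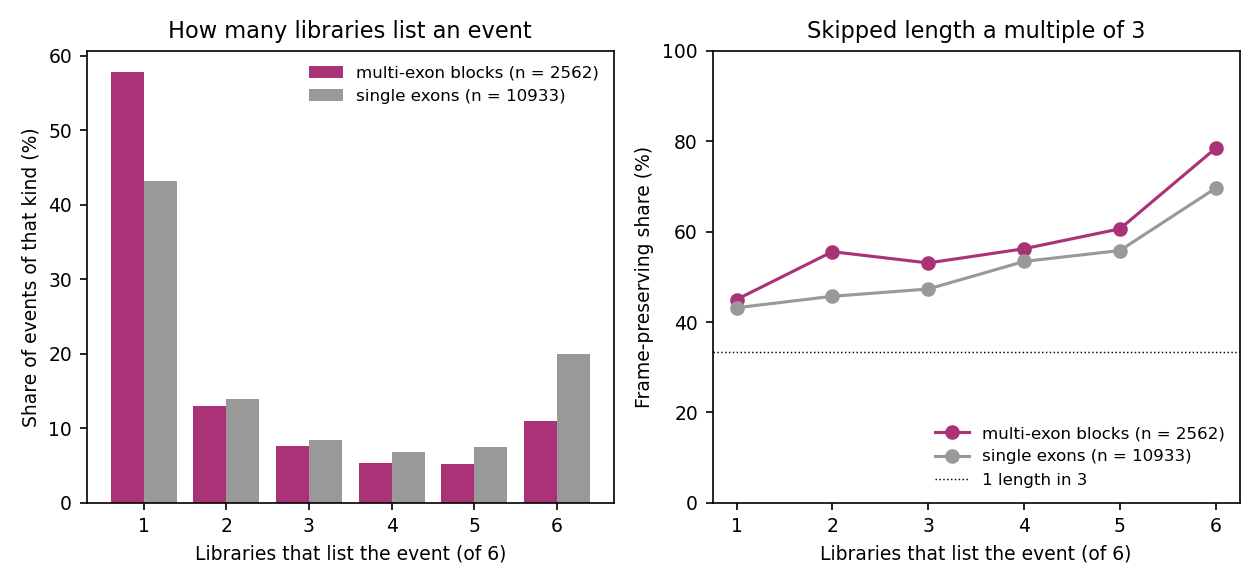
Left, share (%) of the 2562 multi-exon blocks and the 10933 single-exon events against the number of libraries that list them; right, share (%) whose skipped length is a multiple of 3, with a dotted line at 1 length in 3. Blocks were listed in 1 library more often than single exons (57.8% against 43.2%), and their frame-preserving share was 45.0% in 1 library and 78.4% in all 6.

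Frame-preserving blocks were the more common kind where a block recurred. The skipped length was a multiple of 3 in 45.0% of the blocks listed in 1 library, 55.6% in 2, 53.1% in 3, 56.2% in 4, 60.6% in 5 and 78.4% in 6. Single exons had lower values at each number of libraries, from 43.1% in 1 library to 69.6% in 6. Among events with every exon coding, 81.8% of blocks and 75.6% of single exons in all 6 libraries preserved the frame. Annotated exons, shorter length and frame preservation moved together with recurrence, and their separate parts in it were not tested. Within each library the share was higher for blocks than for single exons, with a mean of 60.1% ± 1.09 for blocks and 57.8% ± 0.729 for single exons (SD, n = 6 libraries). The difference lay between 1.47 and 3.04 percentage points and was positive in 6 of 6 libraries (exact two-sided sign-flip test, p = 0.031, the smallest that 6 libraries allow). Libraries share many events, so this p measures agreement between libraries. With blocks of 3 or more exons alone, the difference was 1.60 points and missed the threshold (exact p = 0.219).

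The exons of a pair were mostly in frame one by one only where all 6 libraries listed the block. Both exons were multiples of 3 in 28.2% of the pairs listed in 2 libraries, 28.8% in 3, 36.0% in 4 and 38.1% in 5. Of the 213 blocks of 2 exons listed in all 6 libraries, 129 (60.6%) had both exons multiples of 3 and a further 40 (18.8%) were in frame as a sum alone. A single exon of the pair was a multiple of 3 in 28 (13.1%), and neither the exons nor their sum was in 16 (7.51%). Of the 959 such blocks listed in 1 library, both exons were multiples of 3 in 216 (22.5%), the sum alone in 214 (22.3%), 1 exon in 371 (38.7%) and neither exon nor sum in 158 (16.5%). The share restored by the sum alone thus differed little, while the share with both exons in frame was 60.6% in blocks of all libraries and 22.5% in blocks of 1 library.

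**Figure D2:**
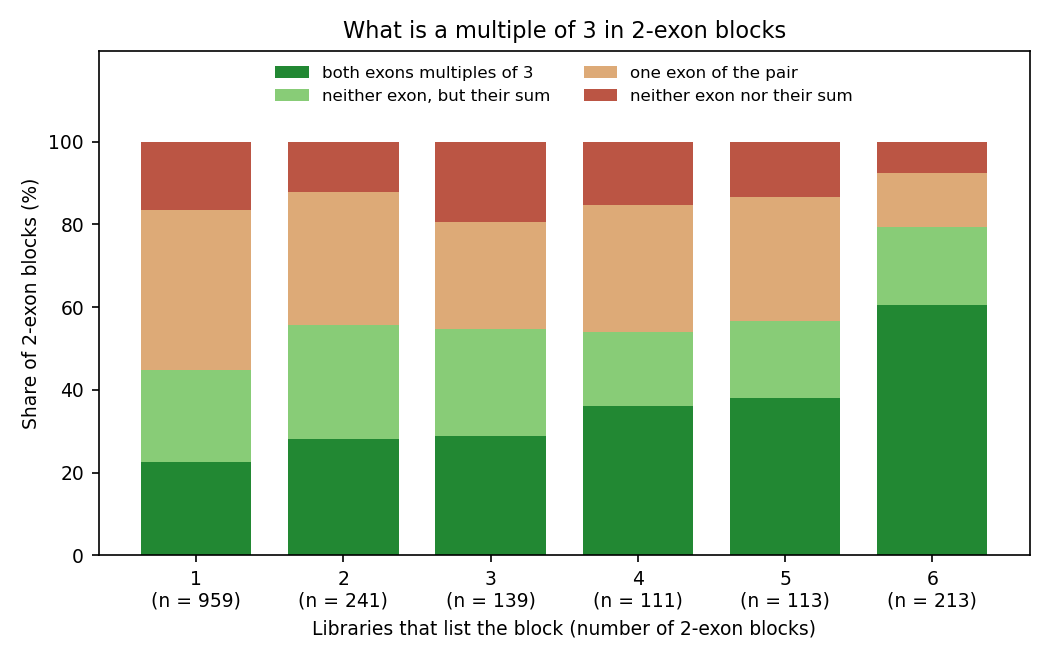
Share (%) of 2-exon blocks by which lengths are multiples of 3, against the number of libraries listing the block; the numbers of blocks stand under the bars. Both exons were in frame in 60.6% of the 213 blocks listed in all 6 libraries and in 22.5% of the 959 listed in 1.

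The 283 blocks listed in all 6 libraries comprised 213 of 2 exons, 44 of 3, 13 of 4, 4 of 5, 2 of 6, 1 of 7, 2 of 8 and 4 of 9; 222 preserved the frame, 61 did not, and 28 held a microexon of at most 30 nt. Blocks with the same exon chain were counted apart where their type or flanks differed, and the 283 held 272 exon chains. Ttc3, a ubiquitin ligase, had the most blocks, 8. Its 6 blocks at 1 place, which were all of those with 8 and 9 exons, had only 2 exon chains. Its longest, at chr16:94383912-94393174 (+), took out 9 exons of 856 nt, which is not a multiple of 3, although every exon overlapped coding sequence and the splice was annotated. Mindy3, a deubiquitinase, lost 7 exons of 633 nt (chr2:12396179-12410080, -). Csmd2, a membrane protein with CUB and sushi domains, lost 6 exons of 735 nt by a splice that M21 does not annotate (chr4:128296395-128338697, +). In both genes single exons out of frame added up to a multiple of 3. Lrrfip1 also lost 6 exons, but each was a multiple of 3, from 18 to 78 nt, with 300 nt in all.

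**Figure D3:**
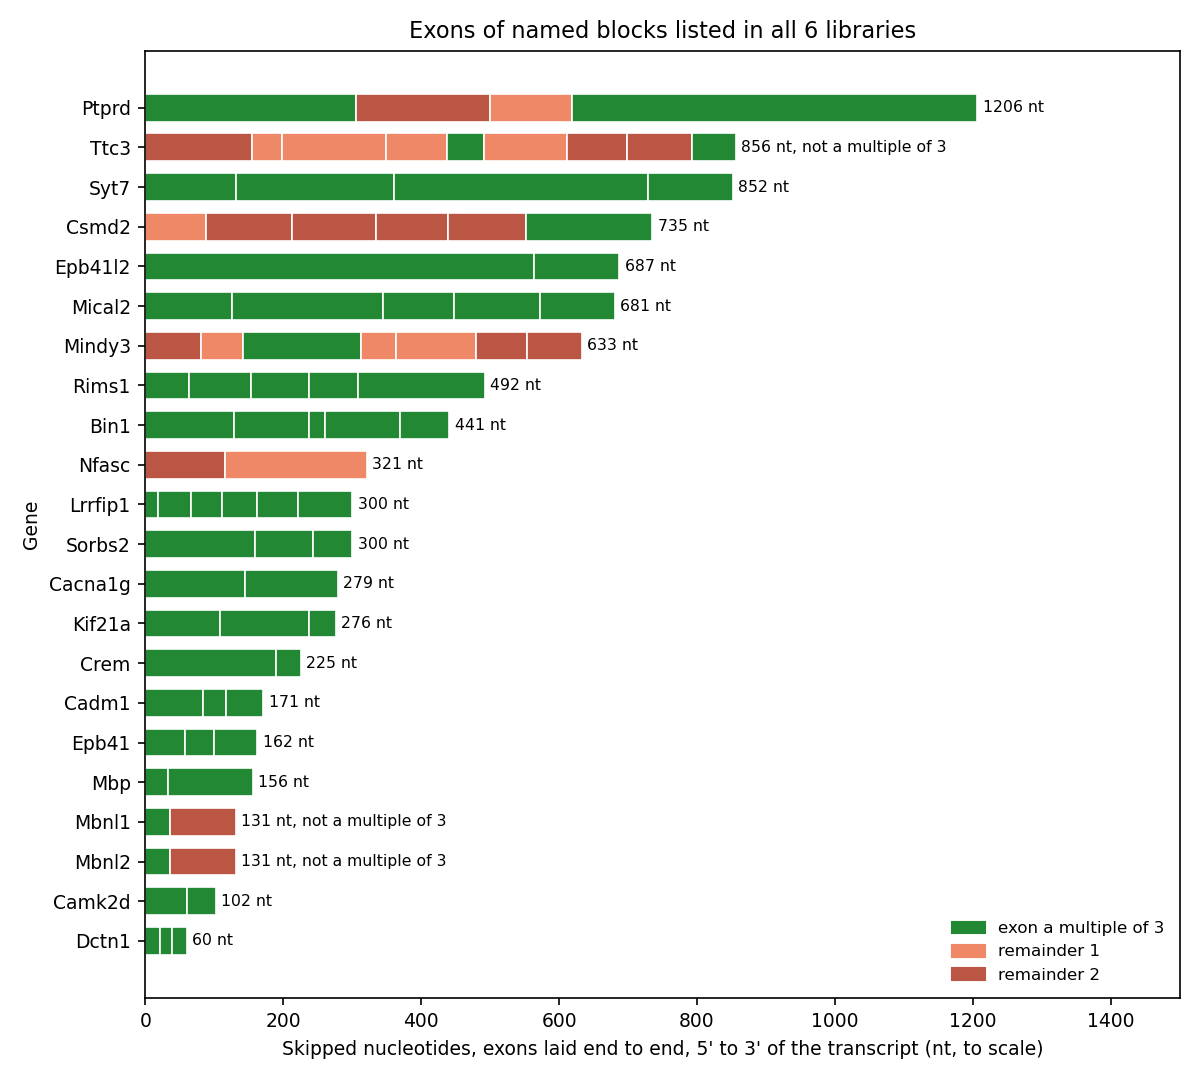
Exons of 22 blocks listed in all 6 libraries with at most 1300 nt, laid end to end from 5′ to 3′ of the transcript and drawn to scale in nucleotides, coloured by the remainder after division by 3. Most are built of exons that are each a multiple of 3; Ttc3, Mbnl1 and Mbnl2 are not multiples of 3 in sum, and Nfasc, Ptprd, Csmd2 and Mindy3 are in sum alone.

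Among genes of the membrane skeleton and of the cross-linkers of actin and microtubules (ankyrins, spectrins and plakins), 9 of 19 had a block and 3 had one in all 6 libraries, against 7.63% and 1.29% of all genes with a listed event. These lists were drawn up with earlier results known, and long genes with many exons can hold more blocks, which was not tested. Macf1, a plakin, lost 5 exons of 6081 nt (chr4:123463538-123476337, -), the first of which alone held 5331 nt. None of the 5 was listed as a single skipped exon. Its paralog Dst had the matching block, with exons of 5292, 150, 216, 150 and 234 nt (6042 nt, chr1:34187972-34196061, +), but in 0 morphine libraries and in 1 saline library. The last 4 exons have the same lengths in both genes, and their bases were identical at 46.7%, 38.0%, 40.7% and 50.4% of positions. Epb41, a protein of the membrane skeleton beneath the plasma membrane, lost exons of 57, 42 and 63 nt, and Epb41l2 exons of 564 and 123 nt, in all 6 libraries. Ank2 and Ank3, the ankyrins that anchor channels in axons, had less recurrent blocks: exons of 99 and 61 nt of Ank2 were listed in 2 morphine and 2 saline libraries, a pair of 99 nt each in 2 morphine and 1 saline, and exons of 63 and 54 nt of Ank3 in 1 morphine and 0 saline libraries.

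Microtubule-associated proteins and motors had a block in 9 of 19 genes and a constant block, meaning listed in all 6 libraries, in 6. All 8 of their constant blocks preserved the frame. Of all 283 constant blocks, 78.4% did, a share to be set beside such counts in this and the next lists. Map2, which stabilises dendritic microtubules, lost 3 exons of 3741, 207 and 135 nt (chr1:66412407-66416866, +), none listed singly. Mapt, which encodes tau, lost a pair of 87 nt each (chr11:104287123-104289994, +), both of which were also listed as single skipped exons. Kif21a, a kinesin, lost exons of 108, 129 and 39 nt, and the Dctn1 microexons printed above amounted to 60 nt.

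Cell adhesion genes had a block in 15 of 27 and a constant one in 7, and all 10 of their constant blocks preserved the frame. Ptprd, a receptor phosphatase that organises synapses, lost 4 exons of 306, 194, 118 and 588 nt (chr4:76086012-76100752, -) in every library. With a 27-nt exon between those of 194 and 118 nt, giving 5 exons, the run was listed in 2 morphine and 3 saline libraries. The same was true of a pair of microexons of 9 and 18 nt of Ptprd. Cadm1, a synaptic adhesion molecule, lost exons of 84, 33 and 54 nt. Nrcam, an axonal adhesion molecule, lost 36 and 153 nt in all 6 libraries, and 126 and 153 nt in 3 morphine and 1 saline library, or, with another end of the exon before the block, in 2 morphine and 1 saline library.

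Presynaptic release genes had a block in 13 of 27 and a constant block in 7, with 19 of 20 constant blocks in frame. Rims1, a scaffold of the active zone, had 19 blocks, of which 5 were constant. The longest constant run took out 5 exons of 63, 90, 84, 72 and 183 nt (chr1:22398599-22425933, -), and the other 4 took out subsets of these exons. In all, 14 Rims1 blocks with 11 different exon chains overlapped in this region. Each of its 5 exons was also listed as a single skipped exon. Syt7, a calcium sensor of vesicle fusion, had 5 constant blocks, and the longest lost 132, 228, 369 and 123 nt (chr19:10421757-10430460, +). Bin1, which bends membranes in endocytosis, had 4, the longest with 5 exons of 129, 108, 24, 108 and 72 nt (chr18:32426224-32431742, +). Rims1, Syt7 and Bin1 were built of exons that are multiples of 3 throughout their longest blocks.

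Postsynaptic scaffold and kinase genes had a block in 11 of 25 and a constant block in 4, all 7 in frame. Camk2d lost 60 and 42 nt and Camk2g lost 33 and 69 nt, so that both of these subunits of calcium/calmodulin-dependent kinase II lost 102 nt in all 6 libraries. Sorbs2, an adaptor of the actin cytoskeleton, lost 3 exons of 159, 84 and 57 nt. Grin1, the obligatory NMDA receptor subunit, had no block.

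In the other lists blocks were fewer than in the lists above. Ion channel genes (26.1% with a block) and splicing regulators (20.8%) still stood above the 7.63% of all genes with a listed event. Ion channel genes had a block in 6 of 23 and a constant one in Cacna1g, a T-type calcium channel, with exons of 144 and 135 nt; Cacna1c, an L-type channel, had none. Splicing regulators had a block in 5 of 24, and the constant ones were those of Mbnl1 and Mbnl2, whose 131 nt are not a multiple of 3. Genes of opioid, dopamine and cAMP signalling had a block in 2 of 25, near the share of all genes. The constant one was in Crem, a cAMP-responsive transcription factor, with exons of 189 and 36 nt. Oprm1, the receptor for morphine, and the dopamine receptor gene Drd2 were listed in all 6 libraries with no block. Glial and vascular markers had a block in 2 of the 19 listed, including the constant pair of 33 and 123 nt in Mbp, myelin basic protein. The 17 motile cilium genes of the ependyma had none.

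Blocks with the same exon lengths in different genes were compared base by base; this comparison was added after the lengths had been seen. A constant block had a partner of equal lengths in another gene in 24 pairs, of which 2 were the same place in the genome under another name, 7 could not be compared for want of whole coding exons and 15 could. Identity was 50% or more in 4 of the 15: Mbnl1 and Mbnl2 with 85.5% over 131 nt, Ildr2 and Lsr with 69.6% over 204 nt, Tpd52 and Tpd52l2 with 68.1% over 69 nt, and Fat1 and Fat3 with 61.5% over 96 nt. Each of these is a pair of paralogs. The other 11 lay between 21.1% and 42.0%, the highest being Lsamp and Ntm, which are also related adhesion molecules.

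Morphine and saline libraries did not differ in the number of blocks beyond the spread between libraries. Morphine replicates 4, 5 and 6 listed 915, 846 and 959 blocks, and saline replicates 1, 2 and 3 listed 909, 899 and 1113. The groups overlapped, and saline replicate 3 stood above the other 5. The means were 906.667 ± 57.0 in morphine and 973.667 ± 121 in saline libraries (SD, n = 3 each), a difference of -67 (exact two-sided permutation test, p = 0.6; 3 against 3 cannot go below 0.1). Without saline replicate 3 the difference was 2.67. That library also had the most blocks seen nowhere else, 355, against 200 to 241 in the other 5. Per 1000 events listed, there were 15.9 ± 1.03 blocks in morphine and 17.2 ± 2.01 in saline libraries (exact p = 0.5). Genes with a block numbered 544 ± 21.8 in morphine and 585 ± 58.7 in saline libraries (exact p = 0.5).

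**Figure D4:**
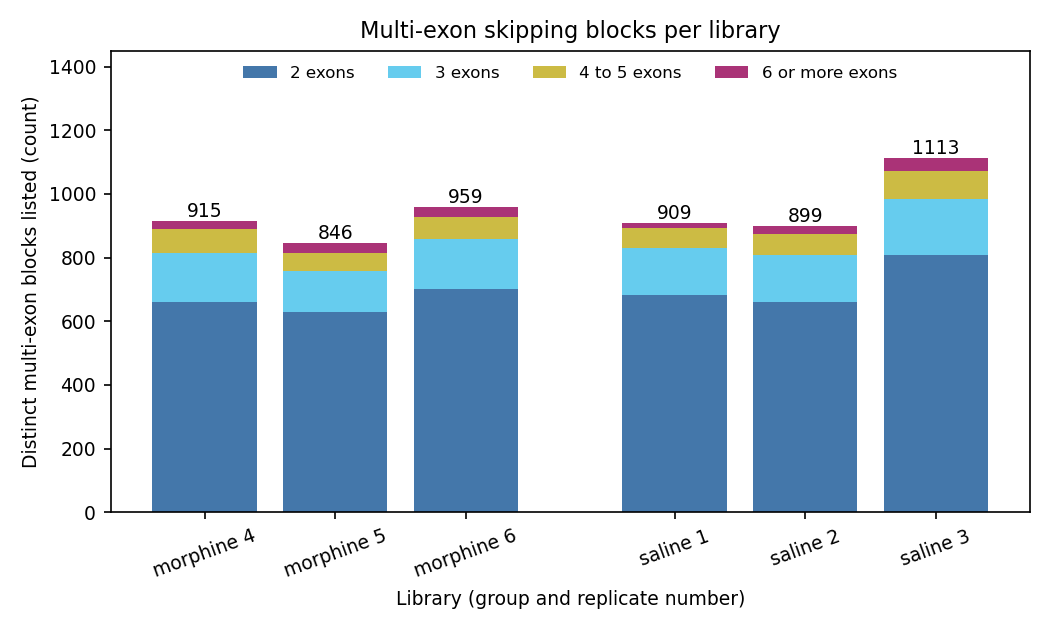
Number of distinct blocks listed by each library, morphine replicates 4 to 6 at the left and saline replicates 1 to 3 at the right, stacked by the number of exons skipped, with totals above the bars. The morphine libraries sit between 846 and 959 and the saline libraries between 899 and 1113, so the groups overlap.

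The same held for each size of block. Blocks of 2 exons averaged 664 ± 35.6 in morphine and 718 ± 79.7 in saline libraries (exact p = 0.4), and blocks of 3 exons 146 ± 16.6 in morphine and 156 ± 16.8 in saline libraries (exact p = 0.6). Blocks of 4 to 5 exons averaged 67.7 ± 9.50 in morphine and 72 ± 13.1 in saline libraries (exact p = 0.7), and those of 6 or more 29 ± 4.36 in morphine and 28.3 ± 12.7 in saline libraries (exact p = 1; SD, n = 3 each). Adjusted over the 4 classes, these exact permutation p-values were 0.933 or more. Blocks made up 15.3% ± 0.966 of skipping events in morphine and 15.6% ± 0.961 in saline libraries (exact p = 0.8, n = 3 each). They preserved the frame in 60.4% ± 1.42 of cases in morphine and 59.8% ± 0.838 in saline libraries (exact p = 0.7, n = 3 each).

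All 3 morphine and 0 saline libraries listed 7 of the 2562 blocks, or 0.273%, where 0.321% of events of all types and 0.338% of single exons were listed this way. All 3 saline and 0 morphine libraries listed 9 blocks, or 0.351%, where the shares were 0.345% of all events and 0.485% of single exons. Blocks were thus divided between the groups about as often as other events. Every gene of these 16 blocks was listed in all 6 libraries. Leaving out any single library raised the counts, to between 9 and 36 blocks for morphine and between 18 and 33 for saline, since fewer libraries then have to agree.

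The morphine blocks were in Macf1, Bcl11b, Trpt1, Cntnap5c, Lrp1b, Zcchc17 and Smpd4. For Lrp1b (exons of 123 and 120 nt), Trpt1 (170 and 175 nt), Zcchc17 (121 and 58 nt) and Smpd4 (45 and 51 nt), the splice that joins the flanking exons was itself listed in 3 morphine and 0 saline libraries. The skipped length is a multiple of 3 in Trpt1, a tRNA phosphotransferase, in Lrp1b and in Smpd4, a sphingomyelinase whose block lies outside the coding sequence. In Zcchc17, a zinc finger protein, it is not. The splice of the Bcl11b block, in a transcription factor of medium spiny neurons, was listed in 3 morphine and 2 saline libraries, and that of Cntnap5c, a contactin-associated protein, in 3 morphine and 1 saline library. Those libraries thus held the splice without the same pair of exons. The Macf1 block was of the approximate type, and its splice was listed in 0 morphine and 0 saline libraries. The same 5 exons were listed with exact boundaries in all 6 libraries.

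The saline blocks were in Ptpn13, Sfi1, Kiz, Htr7, Npy1r, Adam22, Spats2l, Lemd1 and Meaf6, the last falling outside the rule for names. The splice itself was listed in 0 morphine and 3 saline libraries for Ptpn13 (415, 95 and 57 nt), Kiz (82, 166 and 63 nt) and Spats2l (77 and 80 nt). Ptpn13 is a tyrosine phosphatase and Kiz a centrosomal protein. For Npy1r, a neuropeptide Y receptor, Lemd1 and Meaf6, a subunit of histone acetyltransferases, it was listed in 1 morphine and 3 saline libraries. For Htr7, a serotonin receptor, and for Adam22 it was listed in 3 morphine and 3 saline libraries. The exons of Adam22, of 111 and 87 nt, were also each listed as a single skipped exon. Sfi1, which binds centrin, had a block of the approximate type with 79, 136 and 184 nt in genome order. Its splice was listed in 0 morphine and 0 saline libraries, and another, overlapping Sfi1 block in 1 morphine and 2 saline libraries.

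**Figure D5:**
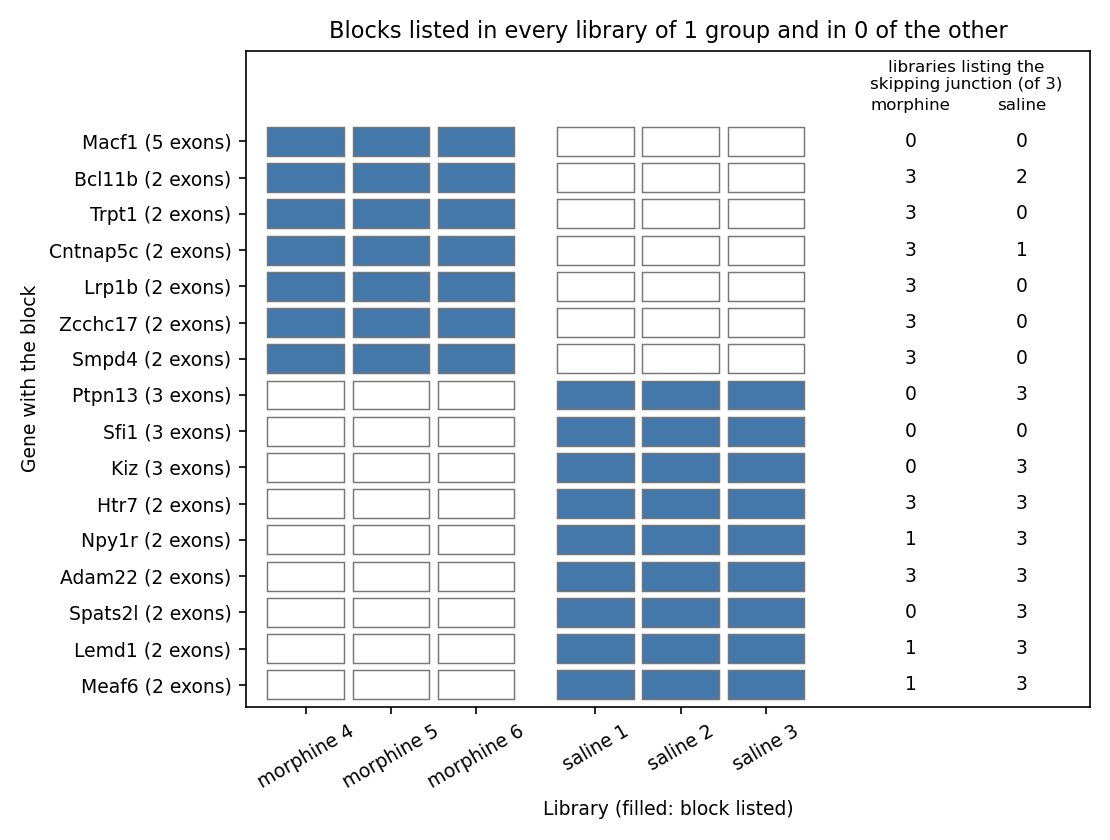
Blocks listed in every library of 1 group and in 0 of the other, with a filled box where a library lists the block, morphine libraries at the left and saline libraries at the right. The columns at the far right give how many of the 3 morphine and 3 saline libraries list the splice that skips the exons: for Adam22 and Htr7 it is 3 and 3, for Lrp1b and Smpd4 3 and 0, and for Ptpn13 and Kiz 0 and 3.

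Counted by gene, 7 of the 1216 genes (0.576%) had more blocks in every morphine than in every saline library and 8 (0.658%) had fewer. For events of all types the shares were 1.55% and 1.35% of 15939 genes. These shares are not alike in kind, since 728 of the 1216 genes had 1 block, whereas the latter count events of every type. Each of the 15 had an exact permutation p of 0.1, the smallest possible, and an adjusted p of 1 over the 1216 genes. By limma on log2(blocks + 0.5), 4 genes were higher and 7 lower in morphine libraries at an adjusted p under 0.05 among 598 genes tested, but 6 of these 11 had identical counts within both groups, which leaves no spread of their own. The largest separation above saline was in Ildr2, an immunoglobulin-like domain receptor, with 7, 4 and 8 blocks in morphine libraries and 3, 3 and 3 in saline libraries. The 3 constant blocks of Ildr2 used exons of 57, 147 and 177 nt. Blocks that ran on into a 114-nt exon, of up to 4 exons and 495 nt, were not listed in morphine replicate 5 or any saline library. They were listed in morphine replicates 4 and 6, except for the block of 57 and 114 nt, which was in morphine replicate 6 alone. Crebrf, a regulator of CREB3 transcription factors, had 3, 3 and 3 blocks in morphine and 2, 1 and 2 in saline libraries. Macf1 had 2, 2 and 3 in morphine and 1, 1 and 1 in saline libraries, Lrp1b had 1, 1 and 2 in morphine and 0 in each saline library, and Smpd4, Trpt1 and Zcchc17 had 1 in each morphine library and 0 in each saline library.

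Fewer blocks in morphine libraries were counted for Myo9b, an unconventional myosin, with 0, 0 and 0 in morphine and 2, 3 and 2 in saline libraries. Its 7 blocks were, however, each listed in 1 saline library, so no block of Myo9b recurred. Lrp11 had 0, 1 and 1 in morphine and 3, 2 and 2 in saline libraries, and Spats2l had 0, 0 and 0 against 2, 2 and 1. Adcyap1r1, the receptor of the neuropeptide PACAP, had 0, 0 and 0 in morphine and 1, 2 and 1 in saline libraries. Its exons of 21 and 42 nt (chr6:55474560-55475508, +) were listed in saline replicates 1 and 2, and its pair of 84 nt each (chr6:55487659-55491310, +) in saline replicate 3. Zfp672, a zinc finger protein, had 0, 0 and 0 in morphine and 1, 2 and 1 in saline libraries, and Kiz, Lemd1 and Ptpn13 had 0 in each morphine and 1 in each saline library. With exact-boundary types alone, Macf1, Lrp11, Myo9b and Zfp672 no longer separated the groups, and with each exon chain counted once Ildr2, Macf1 and Lrp11 no longer did. With annotated exons alone, Myo9b, Spats2l and Zfp672 no longer did. With blocks of 3 or more exons alone, Macf1 still had more in every morphine library and Kiz, Lrp11 and Ptpn13 fewer, and the other 11 genes no longer separated the groups.

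Leaving out predicted gene models, the genes with the most blocks varied widely between libraries of at least 1 group. For Fam149b and Mindy3 this was the morphine group. Fam149b had 29 distinct blocks, of which 1 was constant, with 4, 2 and 9 in morphine and 9, 8 and 8 in saline libraries. Mindy3 had 27, with 6, 12 and 16 in morphine and 6, 8 and 8 in saline libraries. Under Traf3ip2, an adaptor of interleukin-17 receptors, 24 were listed with none constant. Saline libraries listed as few as 0 and as many as 14 of them, with 4 to 8 in morphine libraries. Of these blocks, 23 overlapped on the minus strand at chr10:39622903-39681549. Blocks on the strand opposite to the gene named were kept in such counts, and whether they belong to its messenger RNA was not tested. Zfp644, a zinc finger protein, had 24, Ptk2, the focal adhesion kinase, 20, Epb41l2 18 and Upp2, a uridine phosphorylase, 17. The morphine and saline libraries overlapped for each of these genes. Only Rims1 among these 8 had several constant blocks beside Mindy3: 5 of 19 and 2 of 27.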

How the data were processed

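Per the labels, total RNA of 3 morphine and 3 saline NAc samples was sequenced on an Illumina platform. The authors deposited a list of splicing events per library; of the aligner, assembler, event caller and build, the labels name none. The listed coordinates carry patch names of GRCm38 and were annotated with GENCODE M21. Each list has a column headed FPKM which, per the file headers, should be expression but holds whole numbers from -24 to 0; it was treated as a score of the authors and not used. Depth is therefore unknown. The prefix X of a type was taken to mean approximate boundaries, which no header states.

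A block was listed or not in each library; rows for the skipping form were used to find the skipping splice and were not counted as events. Group means were compared by exact two-sided permutation tests and blocks with single exons by an exact sign-flip test within libraries (python 3.11.15, pandas 2.3.3, scipy 1.17.1). Simulated numbers of blocks per gene were used to try the permutation test per gene and limma. Group totals, frame shares and the sign-flip test were not simulated. An alternative was limma 3.58.1 in R 4.3.3 on log2(blocks + 0.5) for genes averaging at least 0.5 blocks. Others were pseudocounts 0.1 and 1, a minimum mean of 1, exact types, exon chains, annotated exons, blocks of 3 or more exons, and each library left out. Genes were named by rule: the 10 constant blocks with most exons at 1 block per gene, the blocks of 1 group (up to 8 each way), the 8 genes with most blocks, the 6 most separated genes each way, up to 3 constant members per list, and a fixed set of genes; predicted or unnamed models, such as the 19-block Gm15319, were counted and not named by it. Members, lists and names were chosen with earlier results of these data known, the printed sequences after the values were seen. Splice-site bases are not shown, since no genome was used here. A few members that the rule names are not reported here.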

Additional observations from a re-analysis of the deposited data

How the results depend on the processing

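No paired analysis was possible because saline samples are numbered 1 to 3 and morphine samples 4 to 6, so no number is shared. Each library left out in turn moved the morphine minus saline differences to between -104 and 2.67 blocks in total, -81.5 and -8 for 2 exons, -15.7 and 0 for 3, -9 and 3.17 for 4 to 5, -5 and 7.5 for 6 or more, -0.759 and 0.241 points of multi-exon share and -0.0718 and 1.34 points of frame-preserving share. With annotated exons alone the difference was 0.667 for 4 to 5 exons, with exact types alone -1 for 6 or more, and with blocks of 3 or more exons -1.42 points of frame share. For each reversal, the cause was not tested.

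The frame share of blocks minus that of single exons was 2.30 points, 1.60 with blocks of 3 or more exons (exact p = 0.219) and 2.15 to 2.47 with each library left out (exact p = 0.0625, the smallest 5 libraries allow). The share listed in all libraries was lower for blocks by -9.00 points, by -10.6 with exact types, -11.6 by exon chain, -11.1 with 3 or more exons, and -10.1 to -9.54 with each library left out.

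Blocks of morphine libraries alone numbered 1 with 3 or more exons and 9 to 36 with a library left out; those of saline libraries 3, and 18 to 33. Genes with more blocks in every morphine library numbered 1 with 3 or more exons, 3 at a minimum mean of 1 and 11 to 31 with a library left out; with more in every saline library 3, 2 and 15 to 35. limma called 4 and 7 of 598 genes at adjusted p under 0.05 (pseudocount 0.5), 4 and 7 at 0.1 and 3 and 4 at 1; 6 of the 11 had identical counts within both groups, where the spread rests on other genes. Of the alternative values for comparisons, 82 were rated the same, 36 moved, 13 reversed and 7 were weaker. Tested differences were rated by direction and call, and counts and the share listed in all libraries by the size of the change. Some values rated the same could not change: classes of 3 or more exons are identical when only such blocks are kept. A call of a test meant p under 0.05, which no exact test between the groups could reach, so their calls could not change. With a library left out, the sign-flip test could not reach it either. For single genes, none of 114 changed sign, but Macf1 was at 0 with exact types, and several genes no longer separated the groups, as named in the results. Unknown depth limits all listings: a block not listed may be present.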
